A study of Saccharomyces cerevisiae with 31 samples.

Results

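HXT1 to HXT7 are 7 major hexose transporter genes of budding yeast, *Saccharomyces cerevisiae*, chosen by their systematic names and set beside the 5668 genes that entered the authors' comparison of spt6-1004 with wild type (WT). RNA was measured in 3 SPT6 mutants, named spt6-1004, spt6-S8A and spt6-S8E after their alleles, and in WT cells, with 3 libraries per genotype and 12 in all. All cultures grew at 30 °C in YPD, a rich medium with glucose, from an optical density of 0.2 to 1. Spt6 is a histone chaperone that travels with RNA polymerase II. The spt6-S8A allele puts alanine, which cannot be phosphorylated, in place of serines of Spt6 that the series assigns to casein kinase 2. The spt6-S8E allele puts glutamate, often used to imitate phosphate, at these positions, and spt6-1004 is a widely used temperature-sensitive allele. The labels give neither the strain background nor the number of clones, and nothing in them shows that replicates were separate cultures, so the p-values may reflect technical spread alone.

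Hxt proteins carry glucose and other hexoses across the plasma membrane by facilitated diffusion, which moves sugar down its gradient without using energy. They are usually sorted by affinity. Hxt1 and Hxt3 bind glucose weakly and serve when it is abundant, Hxt6 and Hxt7 bind it tightly and serve when it is scarce, and Hxt2, Hxt4 and Hxt5 lie between. Glucose sets which of them is made: the sensors Snf3 and Rgt2 act through Mth1 and Std1 on the repressor Rgt1. In high glucose the repressor Mig1 shuts off the higher-affinity genes, and the kinase Snf1 opposes Mig1 when glucose is scarce. HXT5 is set apart by its control, as it is known to rise when growth slows or cells are stressed.

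In spt6-1004 cells the low-affinity pair HXT1 and HXT3 rose, HXT5 rose, and HXT4 fell, whereas HXT2, HXT6 and HXT7 were not listed. The authors' deposited table for spt6-1004 thus held 4 of the 7 genes at an adjusted p under 0.05, with 3 listed higher and 1 listed lower. Of all genes adjusted, 12.2% were listed, 5.63% higher and 6.62% lower. By affinity, 2 of 2 low-affinity genes were listed higher and 0 of 2 high-affinity genes were listed, while the 3 intermediate genes split into 1 higher, 1 lower and 1 not listed. The authors' tables give no value per library, so each change below is their log2 fold change, and its error is the standard error (SE) that DESeq2 gave them. RNA came from whole cultures, so a change in all cells and a change in a share of them cannot be told apart. Their level measure is the base mean, an average over all 12 libraries on a scale not given in the sources used here.

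**Figure D1:**
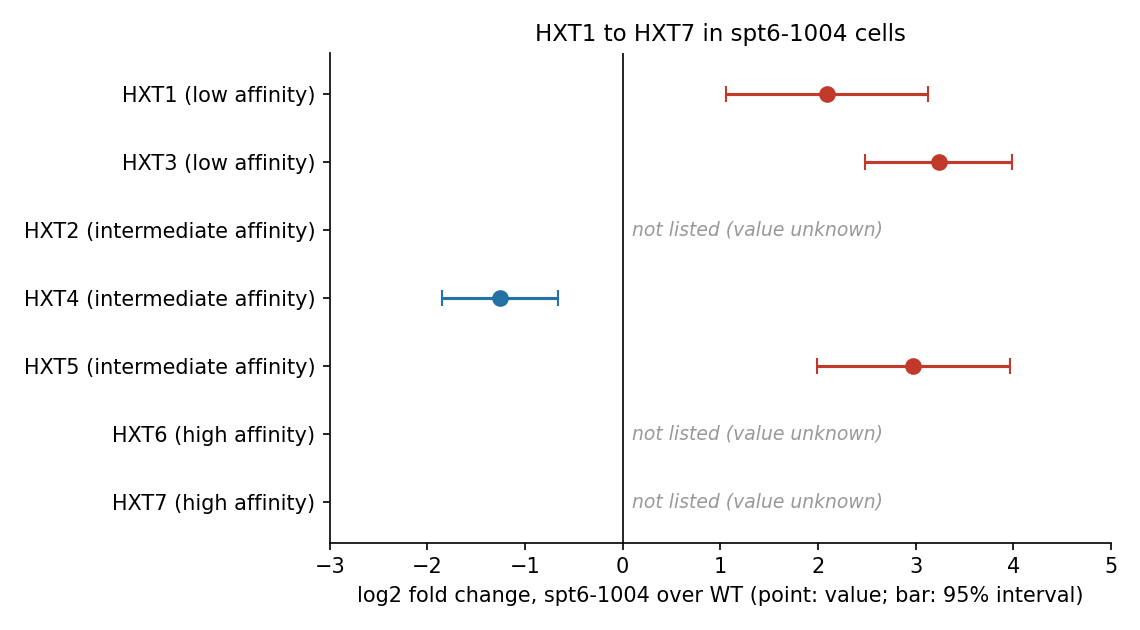
Log2 fold change in spt6-1004 over WT for each HXT gene, with genes down the page by affinity class; points are the authors' values, bars are 95% intervals from their standard errors, and red and blue mark genes listed higher and lower. HXT3 at 3.24, HXT5 at 2.98 and HXT1 at 2.09 lie right of 0, HXT4 at -1.25 lies left of it, and HXT2, HXT6 and HXT7 have no deposited value.

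HXT3 (YDR345C) encodes a low-affinity transporter that is made over a wide range of glucose levels. It lies on chromosome IV from 1162957 to 1164660 (R64, coding sequence). In the authors' deposited table HXT3 was at 3.24 on the log2 scale (SE 0.39, adjusted p = 6.85e-15, DESeq2), a 9.43-fold increase in spt6-1004 over WT with a 95% interval of 5.58 to 15.9. This was the largest change of the 4 listed members and the 32nd largest of the 319 increases. Its base mean was 20.0 in the authors' deposited table. Among the 208 other listed genes with base means within 1.5-fold of it, 84 were higher and 124 lower, and 11 had a larger increase.

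HXT1 (YHR094C), the other low-affinity gene, is classically induced by high glucose. Its coding sequence runs from 290913 to 292625 on chromosome VIII. The authors' deposited table gave HXT1 a log2 fold change of 2.09 (SE 0.53, adjusted p = 0.00118, DESeq2), which is 4.26-fold higher in spt6-1004 than in WT with a 95% interval of 2.09 to 8.71. The base mean of HXT1 was only 1.83 in the authors' deposited table, a sum of 22 over the 12 libraries on that scale. All 25 other listed genes within 1.5-fold of this level were higher, 10 of them by more than HXT1. The direction of HXT1 is therefore the one shared by every listed gene at its level.

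HXT5 (YHR096C) encodes a transporter of moderate affinity that is typical of slow growth, stationary phase and sporulation. It lies next to HXT1 on chromosome VIII, from 294669 to 296447. HXT5 was at 2.98 in the authors' deposited table (SE 0.50, adjusted p = 1.41e-07, DESeq2), a 7.87-fold increase in spt6-1004 over WT with a 95% interval of 3.97 to 15.6. That made it the 43rd largest increase. At its base mean, 6.33 in the authors' deposited table, HXT5 had 90 other listed genes within 1.5-fold of its level, of which 74 were higher and 16 lower.

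HXT4 (YHR092C) encodes a transporter that is made at low glucose and repressed at high glucose. Its coding sequence occupies 287081 to 288811 on chromosome VIII. HXT4 was at -1.25 in the authors' deposited table (SE 0.30, adjusted p = 0.000694, DESeq2), so it was 2.39-fold lower in spt6-1004 than in WT with a 95% interval of 1.58 to 3.61. Among the 375 decreases it ranked 196th. Its base mean, 40.0, was the highest of the 4 members in the authors' deposited table, and of 184 other listed genes within 1.5-fold of that level 43 were higher and 141 lower.

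The 95% intervals for the differences between the 3 increases all included 0 when errors were taken as independent. HXT3 exceeded HXT5 by 0.26 on the log2 scale, with a 95% interval of -0.98 to 1.50 from the authors' deposited standard errors. The difference between HXT5 and HXT1 was 0.89, with an interval of -0.54 to 2.31. Within the low-affinity pair, HXT3 exceeded HXT1 by 1.14, with an interval of -0.13 to 2.42. Taking errors as correlated by 0.5 moved that interval above 0 (0.22 to 2.07). The base mean of HXT1 was 1.83 against 20.0 for HXT3, and the authors' DESeq2 version can shrink fold changes towards 0, most for low genes. How much of the 1.14 comes from such shrinkage was not tested. The distances to HXT4 follow from its opposite call and are no separate test: HXT3 minus HXT4 was 4.49 on the log2 scale (SE 0.49), HXT5 minus HXT4 was 4.23 (SE 0.59) and HXT1 minus HXT4 was 3.35 (SE 0.61). HXT5 and HXT4, both of intermediate affinity, went opposite ways.

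Coding lengths of the 7 genes ran from 1626 to 1779 bases. Base mean per kilobase, averaged over all 4 genotypes, was 23.1 for HXT4, 11.7 for HXT3, 3.56 for HXT5 and 1.07 for HXT1. Because base means average 4 genotypes of equal library number, a genotype's mean cannot exceed 4 times the base mean. In any genotype the mean was therefore no more than 7.33 base mean units for HXT1, 25.3 for HXT5, 80.0 for HXT3 and 160.0 for HXT4. These are limits, not measured group means. With a minimum base mean of 10, HXT1 and HXT5 would drop out and HXT3 would be the 1 member listed higher.

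**Figure D2:**
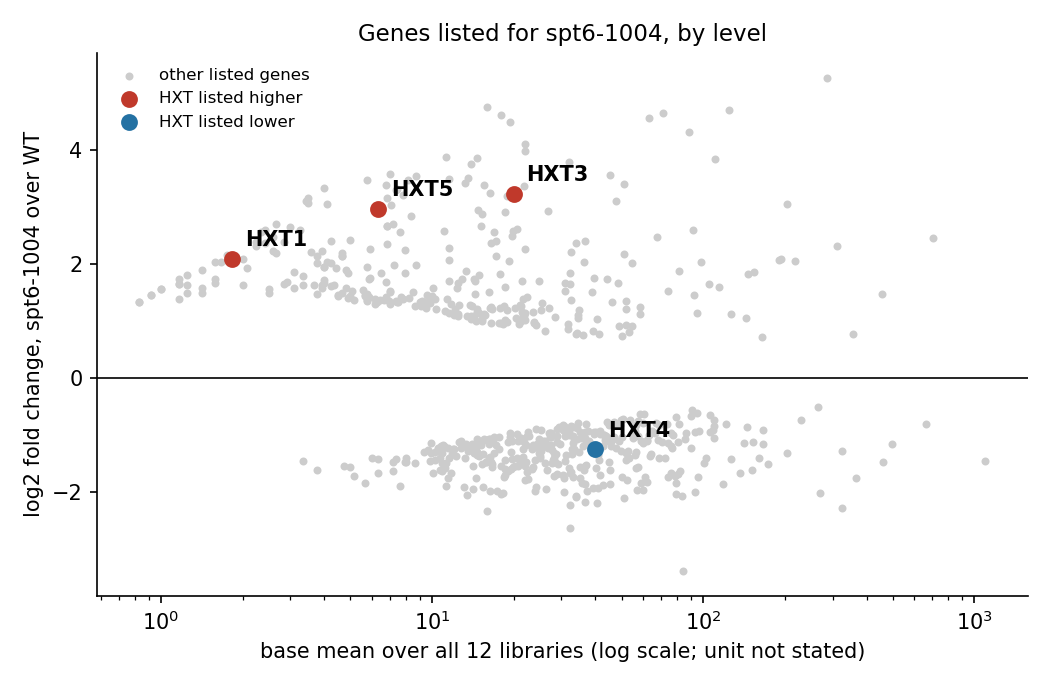
Base mean over all 12 libraries (log axis) against the log2 fold change in spt6-1004 over WT for the 694 genes of the authors' deposited table; grey points are other genes, red and blue points the HXT genes listed higher and lower. HXT1 sits at the low end at 1.83, where increases fill the plot, and HXT4 at 40.0 lies among genes that mostly fell.

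Of the 7 genes, 6 stand in a pair of clusters in which all point the same way, by the strand in their systematic names. On chromosome VIII the order in the direction of transcription is HXT5, HXT1, HXT4, within 9367 bases. Here a gene that rose, HXT1, is followed after 2101 bases by HXT4, which fell, while 2043 bases separate HXT5 from HXT1, which both rose. AHT1 (YHR093W), annotated between HXT1 and HXT4 on the other strand, was not listed, and neither were the outer neighbours MSR1 and PAL2. On chromosome IV the order is HXT3, HXT6, HXT7, within 10445 bases. HXT3 rose there, whereas HXT6 (from 1159608 to 1161320) and HXT7 (from 1154216 to 1155928) were not listed, and neither were YDR344C between HXT6 and HXT3 or the outer neighbours SVF1 and YDR341C. HXT2 (YMR011W) stands alone on chromosome XIII, from 288079 to 289704. Its next protein-coding gene CLU1 was at -0.81 in the authors' deposited table (SE 0.22, adjusted p = 0.00352, DESeq2), and ANY1 on its other side was not listed.

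**Figure D3:**
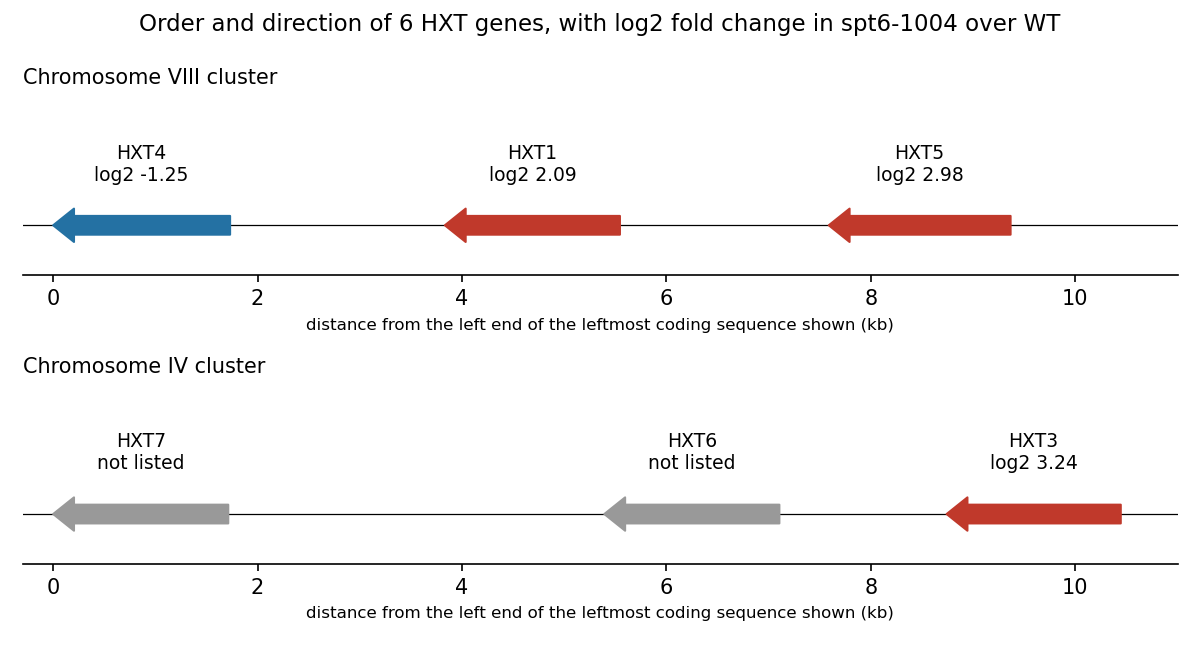
Coding sequences of the chromosome VIII cluster (top) and the chromosome IV cluster (bottom) to scale, as distance in kb, with arrows in the direction of transcription; red marks genes listed higher in spt6-1004, blue lower and grey not listed. Each cluster mixes calls: HXT4 at -1.25 follows HXT1 at 2.09 and HXT5 at 2.98, and HXT6 and HXT7 without a call follow HXT3 at 3.24.

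HXT2, HXT6 and HXT7 were not shown to be unchanged. A gene that was adjusted but not listed had a p of at least 0.00613, so its Wald statistic, the log2 fold change divided by its SE, was 2.74 or less in size, and without their SE no limit on their fold change follows. HXT6 and HXT7 are near-identical copies that can share reads. How the authors' counting divided such reads was not stated in those sources either, so the lack of a call for either is uncertain. The other members are related genes as well, and sharing of reads among them, HXT1 and HXT3 included, was not tested.

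The next comparisons ask whether the transporter genes respond when the serines themselves are changed. No HXT gene was listed for spt6-S8A, where the authors' deposited table held 23 of 431 adjusted genes (5.34%), or for spt6-S8E, where it held 1 of 5668 (0.0176%). The authors' DESeq2 tables stop at an adjusted p of 0.05, so how many members had an unadjusted p under that value is not known. All 3 mutants were set against the same WT libraries.

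What these absences allow differs by gene. If the 431 genes of the spt6-S8A adjustment were those above a minimum base mean, HXT1 and HXT5 were not among them, because 673 and 590 genes of the spt6-1004 table had base means at least as high. For HXT3, with 361 such genes, this could not be settled. On the same assumption HXT4 was adjusted, since its base mean was above the lowest in the spt6-S8A table, 32.6, so the size of its Wald statistic there was 2.99 or less. Taken with its SE in spt6-1004, that is a change of at most 0.91 in size on the log2 scale in spt6-S8A, against -1.25 in spt6-1004. The 23 genes in both tables had SEs in spt6-S8A that were 0.874 to 1.09 times those in spt6-1004.

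In spt6-S8E the adjustment covered 5668 genes and left room for Wald statistics up to 4.29 in size among genes not listed. With the SEs of spt6-1004 this limit is 1.65 on the log2 scale for HXT3, 2.16 for HXT5, 2.26 for HXT1 and 1.31 for HXT4. An increase as large as in spt6-1004 cells, 3.24 for HXT3 or 2.98 for HXT5, would have passed it. Changes like those of HXT1 or HXT4 would not have. The SE in spt6-S8E was available for 1 gene, SER3, and a gene with fewer reads there than in spt6-1004 cells has a larger error, so these limits are approximate. The difference between mutants was not tested for any HXT gene.

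No other member of the hexose transporter family was listed. HXT8 to HXT17 and the galactose permease gene GAL2, 11 annotated genes of which HXT12 is a pseudogene, had 0 listed higher and 0 lower for spt6-1004, spt6-S8A or spt6-S8E. With 12.2%, 5.34% and 0.0176% of all adjusted genes listed in these tables, few or none of 11 genes would be listed in any case. Their levels are unknown, so this does not show that they were unchanged.

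Among genes that sense glucose, act on HXT genes or serve the use of other sugars, 80 genes in 6 lists, 9 were higher, 1 was lower and 70 were not in the authors' deposited table for spt6-1004. The share of these genes listed in either direction was near the 12.2% of all genes adjusted, so that count does not set them apart. By direction, 9 of 80 higher stands beside 5.63% of all genes adjusted, and 1 of 80 lower beside 6.62%. This split was not tested. At an adjusted p under 0.01 the higher genes numbered 4, and at base means of at least 10 they numbered 3. In the sensor and Rgt1 branch, 2 of 13 genes were higher and 1 lower. MTH1, whose product keeps Rgt1 active as a repressor of HXT genes, was at 1.53 in the authors' deposited table (SE 0.50, adjusted p = 0.0223, DESeq2). The base mean of MTH1 was 5.08, a level at which listed genes were mostly higher, as given above for HXT5. YCK1, a casein kinase I gene that acts with the glucose sensors, was at 1.09 in the authors' deposited table (SE 0.32, adjusted p = 0.00784, DESeq2). TUP1, which encodes a subunit of the corepressor that Rgt1 and Mig1 recruit, was at -1.11 in the authors' deposited table (SE 0.23, adjusted p = 4.14e-05, DESeq2). SNF3, RGT2, STD1 and RGT1 were not listed.

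In the Snf1 and Mig1 branch 2 of 16 genes were higher and 0 lower. Of all genes adjusted, 12.2% were listed in either direction and 5.63% higher, and with so few genes this was not tested. MIG2, whose product is a repressor related to Mig1, was at 1.47 in the authors' deposited table (SE 0.52, adjusted p = 0.0381, DESeq2). TOS3, a gene for a kinase that activates Snf1, was at 1.31 in the authors' deposited table (SE 0.48, adjusted p = 0.0496, DESeq2), at the edge of the threshold. The base means of MIG2 and TOS3 were 3.75 and 6.17. Listed genes at such low levels were mostly higher, as described above for HXT1 and HXT5. SNF1, MIG1, HXK2 and REG1 were not listed. None of the 21 genes of the cAMP and stress branch was listed, MSN2, MSN4 and HAP4 included. Nor were any of the 12 genes of transporter turnover, among them the ubiquitin ligase gene RSP5 and the arrestin genes ROD1 and ROG3. With 12.2% of all genes adjusted listed, few calls would fall in either list in any case. Genes without a call were not shown to be unchanged. The stress list does not stand for all stress genes: HSP12 at 4.32 and CTT1 at 3.39 in the authors' deposited table lie outside it. Stress genes outside the list were not counted by direction.

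The other sugar genes that were listed all rose. Among 15 genes for the uptake and use of other sugars, 3 were higher and 0 lower, where 5.63% of all genes adjusted were listed higher. With so few genes this count was not tested. IMA1, an isomaltase gene, was at 2.41 in the authors' deposited table (SE 0.52, adjusted p = 8.28e-05, DESeq2). The maltose transporter genes MAL11 and MAL31 were at 1.93 and 1.66 in the authors' deposited table, with base means of 2.08 and 2.83. That of IMA1 was 4.25. At such low levels listed genes were mostly higher, as given above for HXT1 and HXT5, so their shared direction does not set these genes apart. All 3 belong to families whose members may share reads, so their values are uncertain. SUC2 and the 6 GAL genes of the list were not listed. Of 4 sugar kinase genes, whose products phosphorylate the hexose once it is inside, 2 were higher, again beside 5.63% of all genes and too few to test. In the authors' deposited table for spt6-1004, HXK1 was at 1.06 (SE 0.36, adjusted p = 0.0275, DESeq2). GLK1 stood at 1.54 in the authors' deposited table for the same mutant (SE 0.24, adjusted p = 5.02e-09, DESeq2). GLK1 was also the 1 gene of these 6 lists in the authors' deposited table for spt6-S8A, at 0.75 (SE 0.24, adjusted p = 0.0447, DESeq2). That p was near the threshold and came from an adjustment over only 431 genes, of which 5.34% were listed. None of the 6 lists' genes was listed for spt6-S8E.

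**Figure D4:**
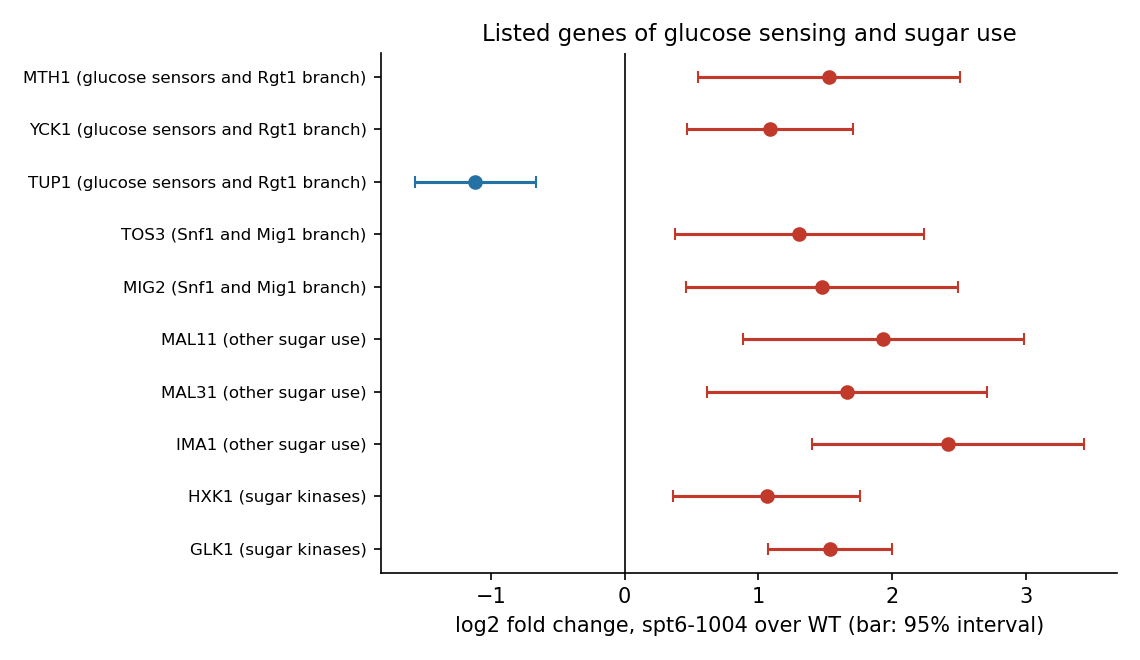
Log2 fold change in spt6-1004 over WT of the 10 listed genes of glucose sensing and sugar use, with genes down the page by list; points are the authors' values, bars are 95% intervals, and red and blue mark higher and lower genes. TUP1 at -1.11 is the 1 point left of 0, and IMA1 at 2.41 lies farthest right.

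For each listed HXT gene the 2 genes nearest in log2 fold change and log2 base mean were taken from the same table, as a description over 1 comparison. HXT3 lay closest to TFS1, which encodes an inhibitor of carboxypeptidase Y, at 3.21 and to HPF1, a cell wall mannoprotein gene, at 3.37 in the authors' deposited table. HXT5 lay closest to SNZ1, a vitamin B6 synthesis gene, at 3.04 and to RTC3 at 3.16 in the authors' deposited table. Nearest to HXT1 were YLR227W-B at 2.17 and the oligopeptide transporter gene OPT2 at 2.09 in the authors' deposited table. HXT4 had as neighbours in this sense ERG25, a sterol synthesis gene, at -1.27 and NOG1, a ribosome assembly GTPase gene, at -1.28 in the authors' deposited table.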

How the data were processed

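The authors deposited 1 table per mutant with their comparison against WT and no value per library. The authors' tools, per the submitters' processing notes, were SAMtools 1.3.1, bedtools 2.26, DESeq2 1.14.1, Salmon 0.8.1, STAR 2.5.2b and cutadapt 1.10, and the build was sacCer3; their roles were not stated. Per the labels' protocols, stranded paired-end libraries were made from RNA depleted of ribosomal RNA and then given ERCC spike-ins. Per the file headers, each row holds a log2 fold change, the standard error on the log2 scale, a p-value, an adjusted p-value, and as plain scores a base mean and a Wald statistic. The rows the authors deposited all have adjusted p-values under 0.05; "listed" means present in such a table. Base means times 12 are whole numbers (tolerance 1e-06), as counts that DESeq2 itself did not scale for depth would give. Whether and how the counts were scaled beforehand is unknown, and every fold change here rests on that step. Depth per library is unknown. The authors' DESeq2 version can shrink fold changes towards 0, which would understate those of low genes.

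No new test across genes was run. The number of genes adjusted was worked back from the adjusted p-values with the Benjamini-Hochberg formula, and adjusted p-values recomputed with it matched all 694 deposited values for spt6-1004, all 23 for spt6-S8A and, by construction, the 1 for spt6-S8E. The limit for genes not listed follows from that number, the count of listed genes and the threshold. As a check of the code, 50 sets of 5668 genes with 200 changed were simulated for the spt6-1004 comparison. The number was recovered and the limit held in 100% of sets, which the formula itself ensures, so this lends no support to the results. Intervals are normal, at 95%. Symbols and positions come from a RefSeq gene table of assembly R64, the assembly that sacCer3 names. Python 3.11.15, pandas 2.3.3, numpy 2.4.6 and scipy 1.17.1 were used.

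Genes named are the 7 members, listed genes of 7 other lists, listed protein-coding neighbours and the 2 nearest genes per listed member; others are named where they were not listed. Members and lists were chosen with earlier results of these data known. Chromatin immunoprecipitations and inputs, 19 samples, were not analysed here.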

Additional observations from a re-analysis of the deposited data

How the results depend on the processing

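HXT1, HXT3 and HXT5 stayed higher and HXT4 lower at a log2 fold change of 1 or more in size. The same held at an adjusted p under 0.01. Counting HXT6 and HXT7 as 1 gene left both counts as they were by construction, because neither was listed. A base mean of at least 10 left 1 member higher, HXT3, by construction. Placing HXT2 and HXT4 with the high-affinity genes gave that class 1 lower member, HXT4, in place of 0. With errors correlated by 0.5 the interval of the difference of 1.14 between HXT3 and HXT1 excluded 0, with the limit of level given above. The 9 higher genes of glucose sensing and sugar use became 4 at an adjusted p under 0.01 and 3 at base means of at least 10. Of 33 alternative values, the other 28 kept their direction and their side of the threshold. Several of these could not have moved, among them the merge of HXT6 and HXT7 and the family genes, of which none was listed. Adjusting spt6-S8A over more genes could only remove calls, and no HXT gene had one. The 28 are therefore no measure of stability. No paired analysis was possible because the deposited tables hold no value per library, and for the same reason no replicate could be left out. The depth of the libraries is unknown, which limits what an absent call can show, most of all for genes of low level such as HXT1. Protein and promoter comparisons were not run.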
